A study of Mus musculus with 24 samples.

Results

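The H3K9ac peak lists of clone 6_1 were compared with those of clone 4_1, both Gcn5 fx/fx, in embryoid bodies at day 5 of differentiation. Acetylation of histone H3 at lysine 9 (H3K9ac) was mapped by chromatin immunoprecipitation and sequencing (ChIP-seq). Each clone gave 2 replicate lists, so 4 of the 8 H3K9ac lists in the series, which holds 24 samples, entered the comparison. The peaks of these 4 lists were merged where they overlapped by at least 1 bp, which gave 22979 regions, against 26034 when all 8 lists were merged. A region belonged to a clone alone when it had a peak in both lists of that clone and in neither list of the other.

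Both clones were C57BL/6 embryonic stem cell clones with the same homozygous floxed allele and carried no stated Gcn5 deletion, so the comparison is one of clone with clone and not of genotype with genotype. Clone 4_1 is the floxed member of isolate pair 4, whose Gcn5-/- member is 4_C2, and clone 6_1 that of isolate pair 6, whose Gcn5-/- member is 6_C4. Each group is 1 clone, and its 2 lists share that clone's history, so spread between lists is not spread between clones. The lists of 4_C2 and 6_C4 were looked up at the regions found here, as libraries that the choice of regions did not use.

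Gcn5, encoded by Kat2a, is the histone acetyltransferase of the SAGA and ATAC co-activator complexes. It adds acetyl groups to histone H3, lysine 9 included, and the mark gathers around the start sites of genes that are open for transcription and at active enhancers. Embryoid bodies are aggregates in which embryonic stem cells leave the naive state, pass through an epiblast-like state and begin to form the germ layers. H3K9ac at genes of the naive, epiblast and lineage programmes is therefore often in flux in such cells.

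Clone 6_1 had 2400 regions of its own, 10.4% of all merged regions, and clone 4_1 had 69, or 0.300%. By gene, 452 protein-coding genes (2.07% of 21887) had a peak within 1000 bp of an annotated end in both 6_1 lists and in neither 4_1 list. Only 22 (0.101%) had the reverse. Among genes with a 6_1 peak alone were the germline and pluripotency genes Dppa3, Dppa2, Dppa5a and Nr0b1, the Nodal antagonist gene Lefty2 and the DNA methylation cofactor gene Dnmt3l. Those with a 4_1 peak alone included Csf2ra, a cytokine receptor gene, and Gbp2, an interferon-inducible GTPase gene.

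Promoter sequences are shown for 4 genes in one clone alone, including the germ cell gene Tex19.1, where peaks covered bases of the promoter in at least 1 list of that clone and in no list of the other, so that the base composition of a marked start can be read beside its values. They were taken from the RefSeq table for GRCm38.p6, the assembly that mm10 stands for, and run from 250 bases before to 50 bases after the start, 5′ to 3′ on the gene's strand. Capitals mark matches, on either strand, to 3 motifs. The TATA box, searched as TATAAA, was present in 13.6% of the 32851 promoters of the table. The E-box, searched as CACGTG, was present in 7.15%. The GC box, searched as GGGCGG, was present in 35.7%. The CCAAT box, present in 37.4%, was searched as well and had no match in the 4 sequences, and no match overlapped another.
Nr0b1, chrX:86191525-86191824, + strand: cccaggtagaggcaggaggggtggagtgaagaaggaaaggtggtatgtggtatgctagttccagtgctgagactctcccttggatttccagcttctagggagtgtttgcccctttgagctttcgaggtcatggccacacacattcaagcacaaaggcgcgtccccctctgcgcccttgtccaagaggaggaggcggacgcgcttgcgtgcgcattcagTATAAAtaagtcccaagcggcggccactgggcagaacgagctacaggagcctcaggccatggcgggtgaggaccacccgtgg
Dnmt3l, chr10:78049592-78049891, + strand, an internal start: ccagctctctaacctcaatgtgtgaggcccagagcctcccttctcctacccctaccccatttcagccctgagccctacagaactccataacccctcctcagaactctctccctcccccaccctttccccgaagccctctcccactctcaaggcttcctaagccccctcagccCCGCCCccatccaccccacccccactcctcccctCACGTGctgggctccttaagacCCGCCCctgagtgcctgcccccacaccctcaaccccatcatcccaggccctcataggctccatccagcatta
Tex19.1, chr11:121145893-121146192, + strand: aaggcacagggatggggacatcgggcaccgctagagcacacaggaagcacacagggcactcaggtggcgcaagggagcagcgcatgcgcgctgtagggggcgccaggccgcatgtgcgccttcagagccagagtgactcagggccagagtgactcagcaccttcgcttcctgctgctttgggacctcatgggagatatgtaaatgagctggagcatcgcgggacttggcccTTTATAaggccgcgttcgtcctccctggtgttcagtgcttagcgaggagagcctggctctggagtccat
Gbp2, chr3:142620413-142620712, + strand: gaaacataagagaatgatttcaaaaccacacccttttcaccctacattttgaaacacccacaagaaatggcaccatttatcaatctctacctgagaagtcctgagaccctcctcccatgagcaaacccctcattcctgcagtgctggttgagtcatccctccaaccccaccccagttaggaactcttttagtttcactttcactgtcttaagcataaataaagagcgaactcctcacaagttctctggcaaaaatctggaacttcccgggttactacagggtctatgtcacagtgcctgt

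All 300 bases of the internal Dnmt3l promoter lay under peaks in both 6_1 lists and none did in either 4_1 list. In the null clones 40 and 298 of these bases were covered in the 6_C4 lists and 0 in both 4_C2 lists. At the most upstream of the 3 Dnmt3l starts in the table no list had any covered base. The Nr0b1 promoter was covered over 273 bases in replicate 2 of 6_1 and over 0 in replicate 1, whose peak began downstream of it. The Gbp2 promoter was covered whole in both 4_1 lists and in neither 6_1 list. The 4 sequences differ in CpG content, with 16 CpG dinucleotides at Tex19.1, 14 at Nr0b1, 4 at the internal Dnmt3l start and 2 at Gbp2, against a median of 7 over all promoters. A comparison of base composition between the gene sets was void, because promoters were found by symbol for only 71.7% of the 452 genes and 72.7% of the 22.

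The lists of 6_1 were longer. Replicates 1 and 2 held 20809 and 18477 peaks in 6_1, and 15315 and 13260 in 4_1. They covered 44.3 and 43.9 Mb in 6_1, and 31.5 and 26.7 Mb in 4_1. The lists of the clones did not overlap in either measure, and the two-sided exact permutation p was 0.333 for both, the smallest that 2 lists against 2 allow. Median peak width did overlap, at 1809 and 2056 bp in 6_1 and 1847 and 1814 bp in 4_1. Peaks over 4 kb made up 7.13% and 9.33% of the 6_1 lists and 3.97% and 3.46% of the 4_1 lists. The depth of the libraries is unknown, and a longer list can come from deeper sequencing as well as from more marked chromatin, so its part in the counts was not tested by read number.

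The position of peaks relative to genes also differed between the lists of the clones. At gene ends stood 58.6% and 63.2% of the peaks in the 6_1 lists and 72.3% and 77.0% in the 4_1 lists. Peaks inside a gene away from its ends made up 27.4% and 24.2% in 6_1 and 18.9% and 16.0% in 4_1. Peaks outside protein-coding genes made up 14.0% and 12.6% in 6_1, and 8.85% and 7.04% in 4_1. None of these shares overlapped between the clones (two-sided exact permutation p = 0.333 each, the smallest possible). In every clone, null clones included, the longer list had the lower share at gene ends. That share was 78.0% in replicate 2 of 4_C2, with 12041 peaks, and 61.6% in replicate 1 of 6_C4, with 18932. The part of list length in these shares was not tested. Genes with a peak at an end were closer in number, at 12915 and 12635 in 6_1 and 12152 and 11294 in 4_1.

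**Figure D1:**
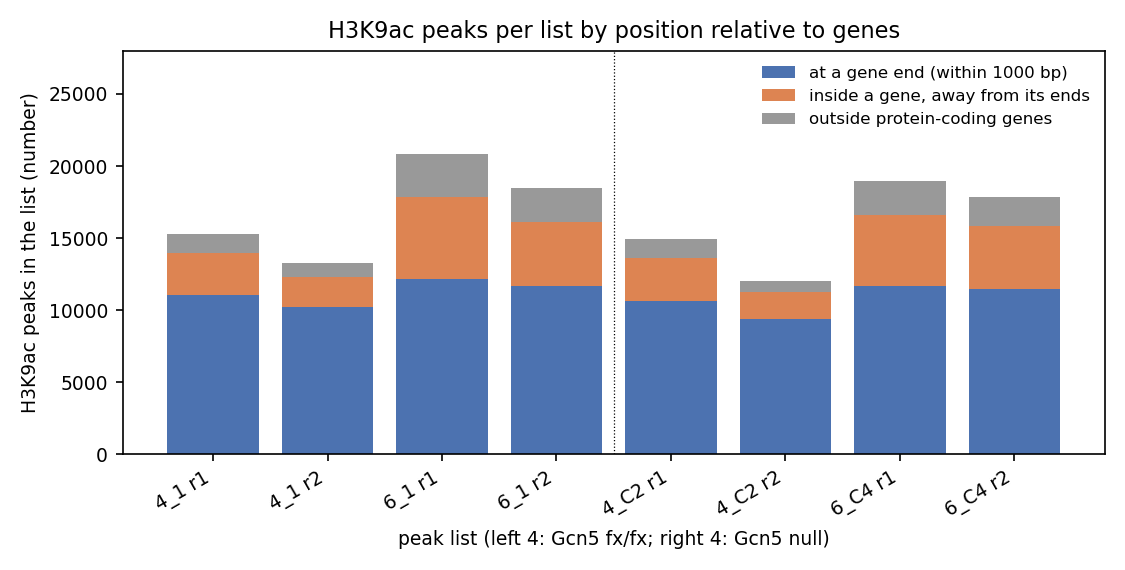
Number of H3K9ac peaks in each of the 8 lists (vertical axis), split by position relative to protein-coding genes, with the 4 fx/fx lists on the left and the 4 null lists on the right. The 6_1 lists, at 20809 and 18477 peaks, stand above the 4_1 lists, at 15315 and 13260, mostly through peaks inside and outside genes.

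Most regions were shared by the clones in some list, and 11894 (51.8%) had a peak in all 4. A further 1861 had one in both 6_1 lists and 1 of the 4_1 lists, and 195 in both 4_1 lists and 1 of the 6_1 lists. Regions in a single list numbered 5911. The Jaccard index of 2 lists, the regions in both over those in either, was 0.787 between the 4_1 replicates, 0.730 between the 6_1 replicates and 0.602 to 0.714 between clones. By this index, pairs of lists from different clones were less alike than either pair of replicates. The index is also lowered by unequal list length, whose part was not tested. Replicate 2 of 4_1 shared 12357 and 12269 regions with the 6_1 lists, against 12158 with replicate 1 of 4_1.

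Regions of 6_1 alone lay away from gene ends. Of the 2400, 564 (23.5%) were at a gene end, 1109 (46.2%) in the body of a gene and 727 (30.3%) between genes. Regions in all 4 lists had 82.3% at gene ends, 11.8% inside and 5.83% outside. Read the other way, 4.46% of all regions at gene ends were in 6_1 alone, against 16.1% of those inside genes and 21.1% of those outside. Of the 69 regions of 4_1 alone, 26 (37.7%) were at a gene end, 30 (43.5%) inside a gene and 13 (18.8%) outside. Clone-only regions were narrow, with a median covered length of 1479 bp for 6_1 and 1183 bp for 4_1, against 2253 bp for regions in all 4 lists. The median distance to the nearest region in all 4 lists was 16.3 kb for 6_1-only and 28.3 kb for 4_1-only regions, and 25.0% and 18.8% of them lay within 5 kb of one.

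**Figure D2:**
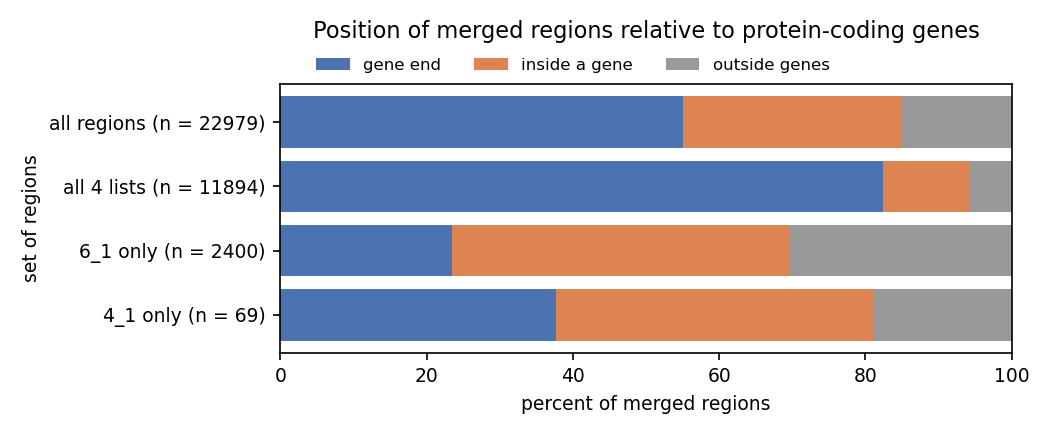
Percent of merged regions (horizontal axis) at a gene end, in a gene body, or outside genes, for all regions and for 3 sets of them. Regions in 6_1 alone are 23.5% at gene ends, against 82.3% of the regions in all 4 lists.

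These counts changed when lists were shortened by width and when single libraries were left out. When each list was cut to its 13260 widest peaks, 884 regions and 153 genes were in 6_1 alone. In 4_1 alone were 750 regions and 454 genes, so that the gene count turned towards 4_1. The narrowest peaks kept were 1509 and 1552 bp in the 6_1 lists and 1179 and 466 bp in the 4_1 lists. Narrow peaks were thus removed from 6_1 at widths that stayed in 4_1, so these counts cannot tell list length from the width limit. When only the 6_1 lists were cut in this way, 734 regions and 116 genes were in 6_1 alone, and 1135 regions and 640 genes in 4_1 alone, so that both counts turned. Leaving out a list loosens the criterion: 6_1-only regions then numbered 4002 without replicate 1 of 4_1, 2674 without its replicate 2, 4260 without replicate 1 of 6_1 and 6135 without its replicate 2. The 4_1-only regions numbered 287, 633, 195 and 142 in the same order. Genes of 6_1 alone numbered 1206, 574, 637 and 847, and genes of 4_1 alone 51, 116, 83 and 50.

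The null clones of the same isolate pairs gave a look at these regions in other libraries. Of the 2400 regions of 6_1 alone, 760 (31.7%, exact 95% binomial interval 29.8 to 33.6%) had a peak in both 6_C4 lists and in neither 4_C2 list, against 8.64% of all merged regions. The reverse held for 4 of the 2400 (0.167%), against 0.309% of all regions. No null list had a peak in 483 of them (20.1%). Of the 69 regions of 4_1 alone, 10 (14.5%, exact interval 7.17 to 25.0%) were in both 4_C2 lists and neither 6_C4 list, and 1 the reverse. The intervals cover counting error over regions only. The share for 6_1 was 21.3% without replicate 1 of 6_1, 16.7% without its replicate 2 and 47.4% with equal-length lists. That for 4_1 was 4.88% without replicate 1 of 4_1, 3.63% without its replicate 2 and 2% with equal-length lists. In the equal-length setting only the floxed lists were shortened, and the null lists stayed whole and unequal in length. The lists of 6_C4, at 18932 and 17849 peaks, were also longer than those of 4_C2, at 14947 and 12041, so list length moved with isolate pair in both genotypes, and its part in these shares was not tested.

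Naive and general pluripotency genes had more peaks in clone 6_1. Of 24 genes listed, 12 had an end peak in all 4 lists, 9 had one in more 6_1 than 4_1 lists, 0 in more 4_1 lists and 3 in none. Over all 21887 genes, 1908 had a peak in more 6_1 lists and 234 in more 4_1 lists. In 6_1 alone were 4 of the 24 (16.7%), beside 2.07% of all genes. The list was drawn up with earlier results of these data known, and its count is a description. The lean towards 6_1 was not particular to this list. A peak in more 6_1 lists was found in 14 of 34 neuroectoderm, 7 of 18 endoderm and 7 of 21 extraembryonic genes. In more 4_1 lists were 1, 0 and 0 of them.

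Dppa3, which protects the methylation of the maternal genome in the early embryo, was covered over 2791 and 2076 bp in the 6_1 lists (replicates 1 and 2) and over 0 in both 4_1 lists. Dppa2, which with Dppa4 opens chromatin of genes of the early embryo, was covered over 1878 and 2763 bp in 6_1 and 0 in both 4_1 lists. Dppa5a, which encodes an RNA-binding protein of stem cells, had 1114 and 1475 bp, again with no 4_1 peak. A peak in each 6_1 list and none in 4_1 was the criterion by which these genes were named. Nr0b1, encoding the orphan nuclear receptor Dax1, had 972 and 1176 bp in 6_1 and 0 in 4_1. With the 6_1 lists cut to the widest peaks, Dppa5a and Nr0b1 no longer met the criterion, while Dppa2 and Dppa3 met it in all 10 alternatives run for each.

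The other 5 of the 9 had a peak in replicate 1 of 4_1, the longer of its lists, and in none of replicate 2. Tdgf1, which encodes the Nodal co-receptor Cripto, was covered over 1232 and 0 bp in 4_1 and over 6861 and 7484 bp in 6_1. Zfp42, also called Rex1 and a classical marker of the naive state, had 2451 and 0 bp in 4_1 and 3221 and 3339 bp in 6_1. Dppa4 and Prdm14, the latter a repressor of differentiation genes, followed the same layout, with 1127 and 1022 bp in replicate 1 of 4_1. All 9 genes had a peak in at least 1 of the 6_C4 lists and in 0 of the 4_C2 lists.

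**Figure D3:**
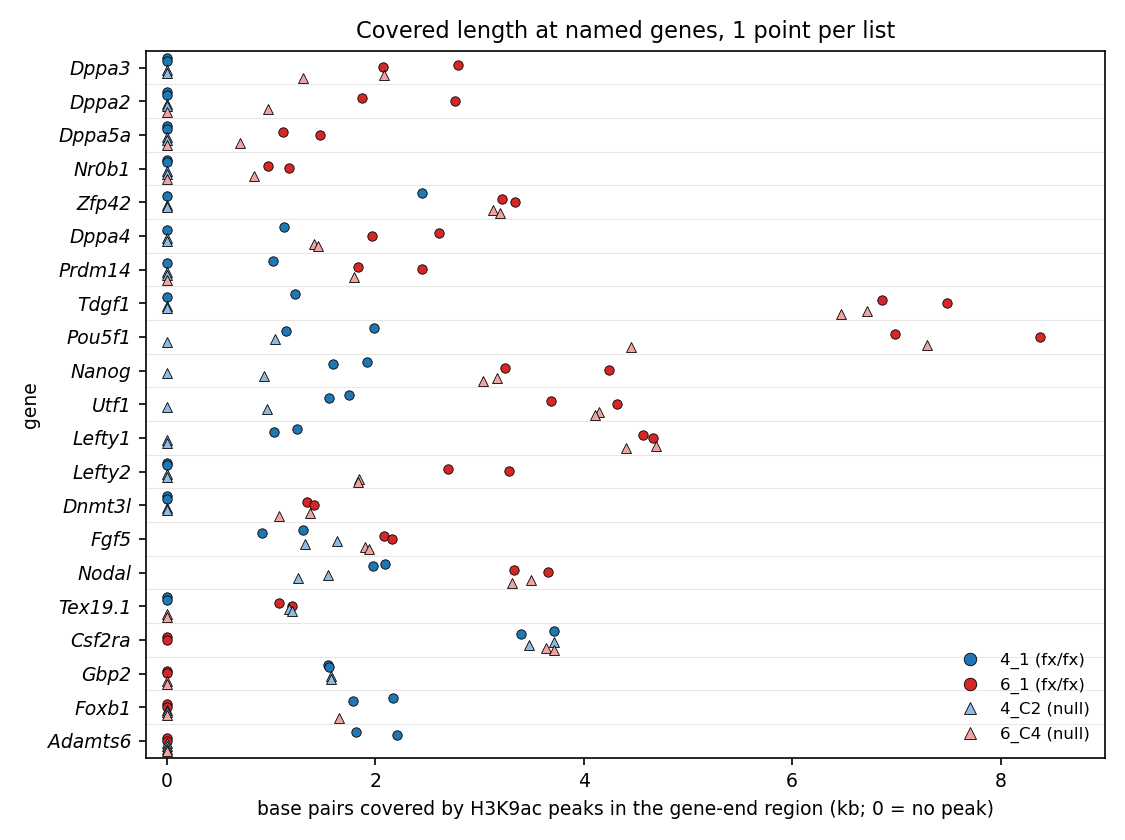
Base pairs covered by H3K9ac peaks (horizontal axis, kb, 0 where a list has no peak) in the gene-end region of 21 genes, with 1 point for each of the 8 lists, circles for fx/fx and triangles for null clones. Points of 6_1 and 6_C4 lie to the right of those of 4_1 and 4_C2 at most pluripotency and epiblast genes, while Tex19.1 has peaks in 6_1 and 4_C2.

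Pluripotency genes with a peak in all 4 lists differed in width. Pou5f1, which encodes the core pluripotency factor Oct4, was covered over 1989 and 1141 bp in 4_1 and over 6989 and 8376 bp in 6_1. After centring on each list's median, the log2 difference was 2.07 ± 0.24 (SE, limma adjusted p = 0.0237 over 11894 regions). Utf1, which encodes a chromatin-bound factor of pluripotent cells, had 1748 and 1558 bp in 4_1 and 3690 and 4318 bp in 6_1, a log2 difference of 1.00 ± 0.12 (SE, limma adjusted p = 0.0250). At Nanog the lists of the clones did not overlap, at 1925 and 1592 bp in 4_1 and 3241 and 4242 bp in 6_1. The log2 difference of 0.81 ± 0.15 did not pass (SE, limma adjusted p = 0.0825). Sox2 and Klf4 differed by -0.02 ± 0.13 and -0.01 ± 0.13 (SE). Of 12 genes of the list whose width was tested, 2 passed as wider and 0 as narrower, and the median log2 difference was 0.29.

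Among 16 primed epiblast genes, 2 had a peak in 6_1 alone (12.5%, beside 2.07% of all genes), 5 in more 6_1 lists and 0 in more 4_1 lists, beside 1908 and 234 of 21887 for all genes. Lefty2 was covered over 2695 and 3282 bp in 6_1, 0 in both 4_1 lists, 1842 and 1831 bp in 6_C4 and 0 in both 4_C2 lists. Its neighbour and relative Lefty1, likewise an antagonist of Nodal, had a peak in all 4 lists, of 1254 and 1031 bp in 4_1 and 4573 and 4667 bp in 6_1. The log2 difference at Lefty1 was 1.75 ± 0.12 (SE, limma adjusted p = 0.0160), and its null lists had 4694 and 4408 bp in 6_C4 and 0 in 4_C2. Dnmt3l had 1343 and 1416 bp near its left end in 6_1 and 0 in 4_1. Nodal itself, at 2091 and 1976 bp in 4_1 and 3334 and 3655 bp in 6_1, differed by 0.51 ± 0.11 without passing (SE, limma adjusted p = 0.117). Fgf5, a marker of the epiblast-like state, differed by 0.69 ± 0.16 (SE, limma adjusted p = 0.136).

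Lineage lists differed in the share of genes in 6_1 alone. Of 18 endoderm genes, 2 had an end peak in 6_1 alone (11.1%, beside 2.07% of all genes). One was Cldn6, which encodes a tight junction protein, at 1742 and 1792 bp in 6_1 and 0 in both 4_1 lists. Of 34 neuroectoderm genes 4 did (11.8%), the paired box genes Pax5 and Pax8 and the basic helix-loop-helix genes Olig2 and Olig3. Among 13 neuroectoderm genes whose width was tested, 4 were above 0 and 0 were called (median log2 difference -0.03). Olig2 had 2868 and 2960 bp in 6_1 and kept its peak through all alternatives run. Of 32 primitive streak and mesoderm genes only Snai1, a driver of the epithelial to mesenchymal transition, was in 6_1 alone. A peak in more 6_1 lists was found in 11 of the 32 and in more 4_1 lists in 1, beside 1908 and 234 of 21887 for all genes. The forkhead gene Foxc2 of that list had a wider region in 6_1, at 2557 and 2267 bp against 1010 and 841 bp in 4_1 (log2 difference 1.11 ± 0.14, SE, limma adjusted p = 0.0264). T, the defining transcription factor gene of the streak, had a peak in 1 list of each clone.

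In other lineage lists, 1 of 20 blood and endothelium genes (Spi1), 1 of 21 extraembryonic genes (Tfap2c), 1 of 39 Hox genes (Hoxa7) and 0 of 12 cardiac genes were in 6_1 alone, counts of 0 or 1 gene that are too small to set against the 2.07% of all genes. Of the 12 cardiac genes 9 had no end peak in any of the 4 lists. Of 17 germ cell genes, Dppa3 and Tex19.1 were in 6_1 alone, and 9 of the 17 had no end peak. No member of these lists had an end peak in 4_1 alone. Of the 39 Hox genes, 8 had an end peak in more 6_1 lists and 4 in more 4_1 lists. With the 6_1 lists cut to their widest peaks, Dnmt3l, Pax5, Pax8, Olig3, Snai1, Spi1, Tfap2c, Hoxa7 and Tex19.1 no longer met the criterion. Hoxb7 and Hoxb8 share the windows of 2 adjoining regions. The larger had peaks in both 4_1 lists (1695 and 2258 bp) and in replicate 2 of 6_1 (1184 bp). The smaller (chr11:96283934-96285278) was in 4_1 alone, at 1231 and 1304 bp.

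Signalling genes in one clone alone were all in 6_1. Of 57 Wnt pathway genes 3 were (5.26%, beside 2.07% of all genes). The ligand genes Wnt6 and Wnt7a and Rspo3, whose product amplifies Wnt signals, were in 6_1 alone, though not with the 6_1 lists cut to their widest peaks. The receptor gene Fzd5 had a wider region in 6_1, at 8083 and 8506 bp against 3175 and 2899 bp (log2 difference 1.18 ± 0.11, SE, limma adjusted p = 0.0203). Among 30 Wnt pathway genes whose width was tested, 11 were above 0 and 1 was called wider (median log2 difference -0.02). Of 47 genes of TGF-beta, Nodal and BMP signalling, Lefty2 was in 6_1 alone (2.13%, near the share of all genes). The regions of Lefty1 and of Gdf3 passed as wider, but among 35 genes of this list whose width was tested only 11 were above 0 (median log2 difference -0.10). Gdf3, which encodes a Nodal-related ligand, was covered over 19008 and 15925 bp in 6_1 and 6516 and 6576 bp in 4_1, in a region it shares with Apobec1 (log2 difference 1.14 ± 0.15, SE, limma adjusted p = 0.0298). Of 44 genes of FGF ligands, receptors and feedback, the pathway named in the series title, 0 were in either clone alone. A region inside the receptor gene Fgfr1, away from its ends, was wider in 6_1, at 3885 and 5031 bp against 1265 and 1124 bp in 4_1 (log2 difference 1.62 ± 0.14, SE, limma adjusted p = 0.0203). Fgf4 was covered over 1889 and 0 bp in 4_1 and 4883 and 3862 bp in 6_1, and Fgf8 over 1364 and 0 bp and 2637 and 2120 bp. Myc, also named in the title, had 3577 and 2145 bp in 4_1 and 4848 and 4677 bp in 6_1, a log2 difference of 0.51 ± 0.21 that did not pass (SE, limma adjusted p = 0.316).

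Genes active in most cells were marked in both clones. All 78 ribosomal protein genes had a peak in all 4 lists, as did 26 of 28 housekeeping genes and 30 of 31 genes of the SAGA and ATAC complexes, which leaves little room for a difference in presence. In width, 59 of 78 ribosomal protein genes were above 0 (median log2 difference 0.14, against -0.03 over all regions), with 0 called. Of 26 housekeeping genes tested, 1 was called wider, Pgk1, at 2651 and 3083 bp in 6_1 against 1351 and 1294 bp (limma adjusted p = 0.0387). Kat2a, which encodes Gcn5 itself, was covered over 3522 and 3416 bp in 4_1 and 4024 and 3558 bp in 6_1 (log2 difference -0.15 ± 0.13, SE, limma adjusted p = 0.599). The peak at Kat2a also reaches the end windows of Hspb9 and Rab5c. Of 34 imprinted genes matched, 0 were in one clone alone, 1 was called wider and 1 narrower in 6_1. Gnas, a G protein subunit gene, was covered at its end over 1221 and 1086 bp in 4_1 and 5923 and 4609 bp in 6_1 (log2 difference 1.91 ± 0.17, SE, limma adjusted p = 0.0203). The growth-restraining adaptor gene Grb10 was narrower, at 2583 and 3346 bp in 4_1 and 1300 and 1351 bp in 6_1 (log2 difference -1.42 ± 0.18, SE, limma adjusted p = 0.0291), with no peak in any null list.

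The 6_1-only genes with the largest regions were mostly cases of a longer peak. Of the 452 genes, 396 had a largest region that was itself in 6_1 alone, and 56 had one that also held 4_1 peaks, which stopped short of the gene end. At Hsd17b14, a hydroxysteroid dehydrogenase gene next to Bcat2, the region was covered over 13718 and 13699 bp in 6_1 and 3326 and 3057 bp in 4_1. At Cdkn1a, which encodes the cell cycle inhibitor p21, it was 7644 and 7279 bp against 2671 and 2430 bp. Both 6_C4 lists had longer peaks than both 4_C2 lists at each, with 10839 and 10266 bp against 2064 and 2083 bp at Hsd17b14, and 5423 and 5398 bp against 2549 and 2102 bp at Cdkn1a. Capns1, Mmp19, Gnb3, Sema6a, Fbxl22, Ap5b1, Ptpn6 and Efcab12 were of the same kind. With windows of 2500 bp all 10 of these genes but Gnb3 no longer met the criterion, since the 4_1 peak then reached the window too.

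C77080 and Fblim1 were the remaining 2 of the 12 genes with the largest regions, and had no 4_1 peak in the region. The C77080 region, which also reaches an end of Yars, was covered over 5279 and 5165 bp in 6_1. At Fblim1, whose product links filamin to cell adhesions, the 6_1 lists themselves disagreed, at 2626 and 7084 bp. Other regions at gene ends, in 6_1 alone, lay at Notch1 (4564 and 4043 bp), which encodes a receptor of cell to cell signalling, and at Folr1 (4737 and 3597 bp), which encodes a folate receptor. Scd2, a fatty acid desaturase gene, had 4655 and 2978 bp. The start of the gene, where the promoter table gives one, lay under the region in 227 of 324 genes of 6_1 alone (70.1%) and in 12 of 16 of 4_1 alone. Of the 452 genes, 137 (30.3%) had an end peak in both 6_C4 lists and neither 4_C2 list, against 2.77% of all genes. All genes include 8524 with an end peak in no floxed list and 11004 with one in all 4. The 6_C4 lists were also longer than the 4_C2 lists, and the part of list length was not tested.

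Inside genes, the largest 6_1-only regions lay in Tecr, Camsap3, Hsd17b14, Nop58 and Chd2. Tecr, which encodes an enzyme of very long chain fatty acid synthesis, had 4840 and 6381 bp covered in 6_1 (chr8:83572957-83580486) and 6203 and 1743 bp in 6_C4. Camsap3, a microtubule minus-end binding protein gene, had 5211 and 5419 bp, and Chd2, a chromatin remodeller gene, 4720 and 3998 bp. Outside genes the longest lay 38.9 kb from Zfp281, a pluripotency transcription factor gene (chr1:136669289-136678895). It was covered over 8888 and 9420 bp in 6_1, 8048 and 6452 bp in 6_C4, and 0 in all 4 lists of pair 4. A region 1.13 kb from Mcl1, an anti-apoptotic gene, had 4984 and 5817 bp in 6_1, and another lay 16.8 kb from Smarcad1, a chromatin remodeller gene, with 4204 and 5420 bp.

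The 22 genes with a 4_1 peak alone formed no list named here. Csf2ra, the alpha chain gene of the GM-CSF receptor, had the largest region (chr19:61224781-61228500), with 3720 and 3395 bp in 4_1 and 0 in both 6_1 lists. All 4 null lists had it, over 3471 to 3720 bp, so 6_1 was the only clone without it, and it met the criterion in all 11 alternatives run. Adamts6, a secreted protease gene, had 1818 and 2208 bp in 4_1 and no peak in any other list. Foxb1, a forkhead gene of the developing brain, had 2172 and 1788 bp in 4_1 and 1656 bp in replicate 2 of 6_C4. Its relative Foxb2 was in 6_1 alone, at 1527 and 1474 bp; it was named after its values were seen.

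Gbp2 and the adjoining Gbp2b share a region that followed the isolate pair, with 1544 and 1559 bp in 4_1, 1577 bp in each 4_C2 list and 0 in all lists of 6_1 and 6_C4. The region between Epn3 and Mycbpap did likewise, with 1691 and 847 bp in 4_1 and 1607 and 1584 bp in 4_C2. Shbg, the gene of sex hormone-binding globulin, had 2141 and 1580 bp, and Pcdh19, a protocadherin gene, 2510 and 1082 bp. Fam124a had 1318 and 1199 bp. At Ecel1 and H3f4 the region also held a peak in 6_1, away from the end window. Outside genes the largest 4_1-only region, 5.19 kb from Vmn1r235, had 4836 and 5009 bp, and 4329 bp in replicate 2 of 6_C4. Inside genes, the 5 largest lay in Tvp23b, Guk1, Kctd2 and Mprip on chromosome 11, covered over 1295 to 2410 bp in the 4_1 lists, and in the agouti coat colour gene a on chromosome 2, at 1554 and 1667 bp.

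Width was tested in the 11894 regions that had a peak in all 4 lists. Before centring, the medians of the lists were 11.23 and 11.29 in 6_1 and 11.04 and 10.93 in 4_1 on the log2 bp scale, 0.27 higher on average in 6_1, and the median difference over regions was 0.24. Relative to that shift, limma called 140 regions wider (1.18%) and 8 narrower (0.0673%) in 6_1 at an adjusted p of 0.05, and 1152 and 790 had an unadjusted p under 0.05. Without centring it called 629 wider and 7 narrower. The calls depended on single lists: without replicate 1 of 4_1, 105 were wider, 56 of them among the 140, and without replicate 2 of 4_1 or either replicate of 6_1 none was. All 140 stayed above 0 in each of these fits. In such a fit the lone list of a clone is assumed to vary like the other clone's lists.

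Of the 140 wider regions, 91 were at gene ends, 24 inside genes and 25 outside. The regions tested there numbered 9793, 1408 and 693, so that 82.3% of the tested regions were at gene ends. The lowest p was at the Bcat2 and Hsd17b14 region (log2 difference 1.83 ± 0.11, SE, limma adjusted p = 0.0160). Rbpj, which encodes the DNA-binding partner of Notch, was covered over 1346 and 1088 bp in 4_1 and 5289 and 5826 bp in 6_1 (1.93 ± 0.13, SE, limma adjusted p = 0.0160). Gnai2, a G protein subunit gene, had 1594 and 1115 bp against 7246 and 7153 bp (2.16 ± 0.16, SE, limma adjusted p = 0.0171). Morc3, Cfdp1, Ppp1cc and a region inside Gnas were also among the 10 lowest, with log2 differences of 1.43 to 1.75. In each of these regions both 6_1 lists exceeded both 4_1 lists, which follows from choosing them by p in these lists. Of the 140, 93 had a peak in all 4 null lists, and 87 of those were wider in 6_C4 than in 4_C2, beside 4537 of 10188 for all regions so tested. The difference between the 2 contrasts was called in 0 regions by limma's interaction term, with 631 at an unadjusted p under 0.05.

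**Figure D4:**
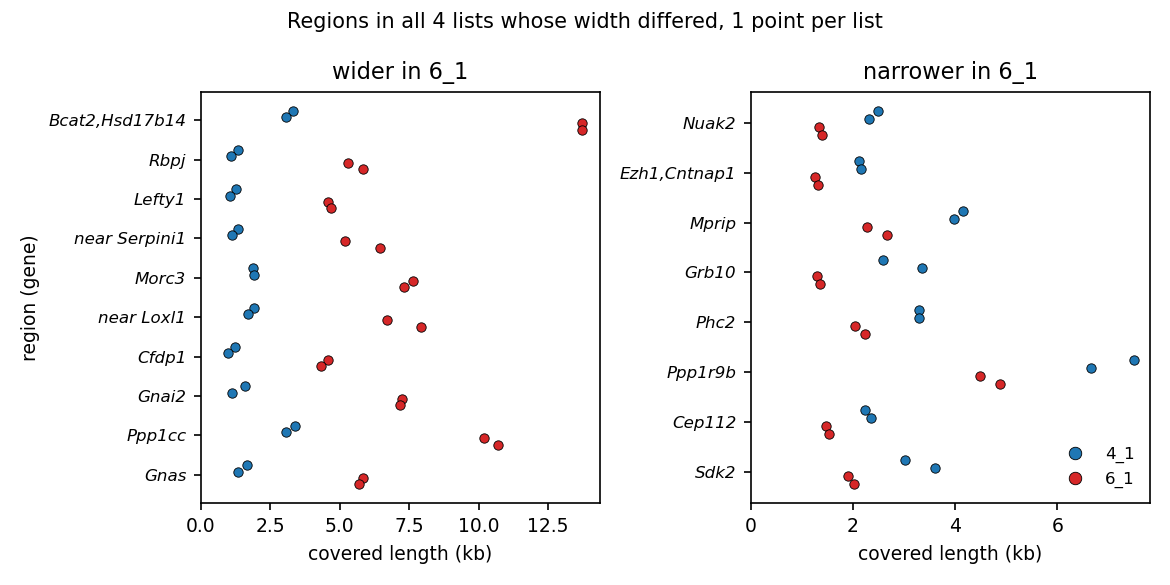
Covered length in kb (horizontal axis) in the 10 wider regions with the lowest p and in the 8 narrower regions, with 1 point for each 4_1 and 6_1 list. The regions were chosen by p from these same lists, so the lack of overlap between the clones follows from the choice. At the top region 6_1 has 13718 and 13699 bp against 3326 and 3057 bp in 4_1.

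Of the 8 narrower regions, 6 lay on chromosome 11, namely those at Ezh1 and Cntnap1, Mprip, Grb10, Ppp1r9b, Cep112 and Sdk2. Ppp1r9b, a gene of a synaptic scaffold protein, had 7496 and 6656 bp in 4_1 and 4477 and 4877 bp in 6_1 (log2 difference -0.87 ± 0.11, SE, limma adjusted p = 0.0298). The remaining narrower regions were at Nuak2 on chromosome 1 (-1.09 ± 0.11, SE, limma adjusted p = 0.0206) and in Phc2, a Polycomb gene, on chromosome 4 (-0.90 ± 0.12, SE, limma adjusted p = 0.0298). Of the 140 wider regions 3 lay on chromosome 11, where 1089 of the regions were tested.

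Chromosome 11 held a smaller share of the peaks in 6_1. It had 8.59% and 8.63% of the peaks in the 6_1 lists and 10.1% in each 4_1 list, a log2 difference of -0.23 ± 0.02 (SE, limma adjusted p = 5.98e-11 over 20 chromosomes). Chromosome 1 was lower too, at 5.25% and 5.30% against 5.73% and 5.78% (-0.12 ± 0.02, SE, limma adjusted p = 3.04e-05). Chromosome 8 was higher, at 6.39% and 6.10% against 5.76% and 5.63% (0.13 ± 0.02, SE, limma adjusted p = 3.04e-05). In all, 7 of 20 chromosomes differed (35.0%), 5 higher and 2 lower in 6_1, and the other higher ones were 4, 5, 6 and 19, with log2 differences of 0.07 to 0.09. Shares add to a fixed total, so a fall on one chromosome raises the rest. These p-values rest on spread that limma pools over the 20 chromosomes, and not on the 4 lists of 1 chromosome alone. For chromosome 11 the limma adjusted p was 0.00586 with replicate number as a block. It was 0.00108 for shares of covered base pairs and 0.0343 with equal-length lists (limma adjusted p). Chromosomes 1, 8 and 11 were called in all 8 alternatives, and chromosome 6 in all but that without replicate 2 of 4_1 (limma adjusted p = 0.0914). Chromosomes 4, 5 and 19 were each lost without replicate 1 of 4_1 (limma adjusted p = 0.0955, 0.0965 and 0.0595) and without its replicate 2 (0.0622, 0.0898 and 0.163). Without replicate 1 of 6_1, chromosomes 5 and 19 were lost (limma adjusted p = 0.176 and 0.0966), and without its replicate 2 chromosome 4 was (0.0917). With equal-length lists all 3 were lost (limma adjusted p = 0.303, 0.0854 and 0.0767), and chromosomes 4, 5 and 19 were called in 3, 1 and 4 of the 8 alternatives.

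The difference on chromosome 11 ran along its length. Of 13 bins of 10 Mb with enough peaks, 11 had a higher share of the list in both 4_1 lists than in either 6_1 list and 0 the reverse. On chromosome 8, 0 of 12 bins were higher in 4_1 and 7 were higher in 6_1. Over all 229 bins, 76 were higher in 4_1, 67 were higher in 6_1 and 86 overlapped. Chromosome 11 held 24 of the 69 regions of 4_1 alone (34.8%) beside 9.38% of all merged regions, and 129 of the 2400 of 6_1 alone, or 5.98% of the chromosome's regions. The median width difference of shared regions was -0.21 on chromosome 11 and 0.10 on chromosome 8.

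**Figure D5:**
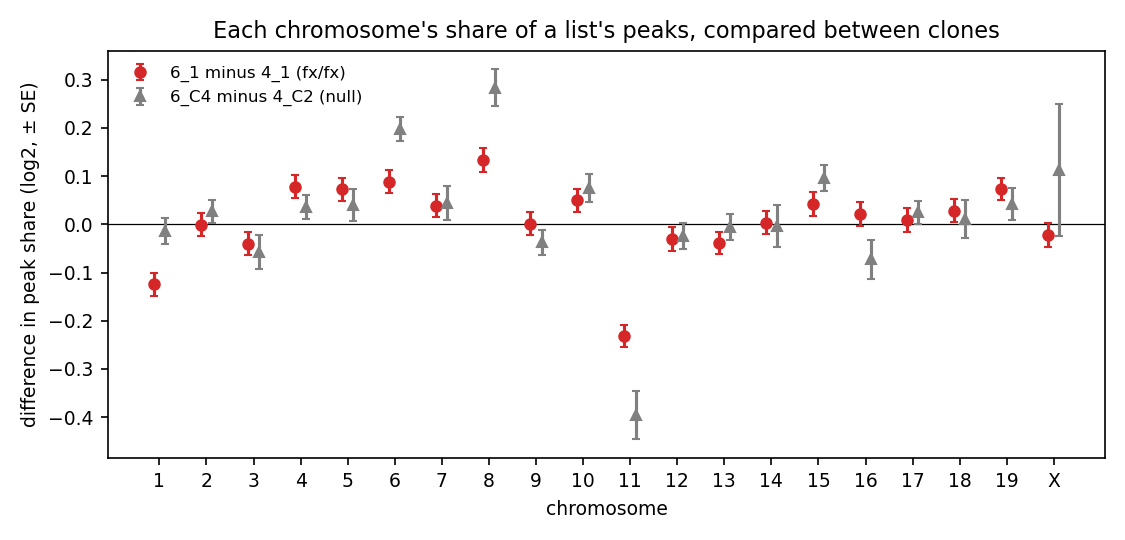
Log2 difference in each chromosome's share of a list's peaks (vertical axis, points with SE bars) for 6_1 minus 4_1 and for the null clones 6_C4 minus 4_C2, by chromosome. Chromosome 11 is lowest in both contrasts, at -0.23 and -0.40, and chromosome 8 highest, at 0.13 and 0.28.

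Between the null clones the same 2 chromosomes stood out, with log2 differences of -0.40 ± 0.05 on chromosome 11 and 0.28 ± 0.04 on chromosome 8, and chromosome 6 had 0.20 ± 0.02 (SE, limma adjusted p = 0.00539 each). On chromosome 1 they differed by -0.01 ± 0.03 (SE, limma adjusted p = 0.738). The test of the difference between the contrasts passed for no chromosome, the lowest limma adjusted p being 0.0692 for chromosomes 1 and 6. The lists hold no read counts, so the amount of DNA of each chromosome in the clones was not measured.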

How the data were processed

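Chromatin of day 5 embryoid bodies was immunoprecipitated with an H3K9ac antibody and sequenced as single reads, per the labels' protocols. For each library the authors deposited 1 peak list, which holds the chromosome, start and end of each peak and no other value or score. Reads were handled with Bowtie 1.1.2 and MACS 1.4.2 on mm10, per the submitters' processing notes. How peaks were thresholded, controlled and filtered was not given in the sources at hand, and depth is unknown. Total H3 and input samples were not used here.

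Coordinates are counted from 1. Gene ends were both ends of 21887 protein-coding genes of GRCm38.p6, whose spans lack strand, with windows of 1000 bp either side. A gene's region is the one with the largest covered length at its ends. Covered base pairs per region and chromosome shares were compared on the log2 scale with limma 3.58.1 in R 4.3.3 (Benjamini-Hochberg at 0.05), over regions in all 4 lists and over 20 chromosomes. Bins of 10 Mb needed 80 peaks over the 4 lists. Other steps used Python 3.11.15, pandas 2.3.3, numpy 2.4.6, SciPy 1.17.1 and matplotlib 3.10.9. The limma fits were tested on simulated data. No separate cultures are named for the replicates, so p-values measure the spread between these lists. In the limma fits this spread is pooled in part over regions or chromosomes.

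The members and the 19 gene lists (628 entries, 622 matched) were chosen with earlier results of these data known. Named genes were, per direction, the 12 clone-only genes and the 5 clone-only regions inside and outside genes with the largest covered length, the 10 called widths with the lowest p, clone-only list members, and Kat2a, Kat2b, Myc, Mycn, Pou5f1, Nanog, T, Fgf8, Fgf5 and Xist, the last of which the protein-coding table does not hold. Some genes that the rule takes are not reported here. Other genes were named after their values were seen: Utf1, Tdgf1, Zfp42, Dppa4, Prdm14, Sox2, Klf4, Nodal, Foxc2, Fzd5, Gdf3, Fgf4, Fgfr1, Gnas, Pgk1, Hoxb7, Hoxb8, Notch1, Folr1, Scd2 and Foxb2.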

Additional observations from a re-analysis of the deposited data

Results flagged for a closer look

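Tex19.1, a germ cell gene that restrains retrotransposons, had its clone difference in opposite directions in the 2 genotypes, with no overlap between lists. Its region (chr11:121145796-121146997, over the start) was covered over 1075 and 1202 bp in the 6_1 lists and 0 in both 4_1 lists, a mean of 1138.5 bp. In the null clones it was 1170 and 1202 bp in 4_C2 and 0 in both 6_C4 lists. The promoter window printed for this gene was covered whole in both 6_1 and both 4_C2 lists. The difference between the contrasts was not tested, and the 6_1 peaks were lost from the criterion when the 6_1 lists were cut to their widest peaks.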

How the results depend on the processing

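The balance between the clones' region and gene counts changed when lists were cut by width, which removed narrow peaks mainly from 6_1. The width calls changed when single lists were left out. With equal-length lists by width, 884 regions and 153 genes were in 6_1 alone, 750 regions and 454 genes in 4_1 alone, 91 regions wider, 5 narrower and 4 chromosomes different; with only the 6_1 lists shortened, chosen after seeing the data, the first 4 counts were 734, 116, 1135 and 640. Leaving out each list in turn gave 2674 to 6135 regions and 574 to 1206 genes in 6_1 alone, 142 to 633 and 50 to 116 in 4_1 alone, 0 to 105 wider, 0 to 2 narrower, 3 to 6 chromosomes, and a median width difference of -21.5 to 225.5 bp, from 102 bp, below 0 without replicate 2 of 6_1. Genes in 6_1 alone numbered 295 with gene starts only and 297 with windows not shared between genes. Without centring 629 regions were wider. A pseudocount of 100 bp over regions found in 2 or more lists gave 2520 wider and 90 narrower, which adds regions absent from some lists, and covered base pairs in regions of all 4 lists gave 13 chromosomes. The replicate block gave 283 wider, 29 narrower and 6 chromosomes. The replicate numbers are not stated to pair the clones. Same-numbered lists had correlations of deviations of -0.018 (widths) and 0.278 (shares). With 2 lists per clone these cannot tell whether such lists share more than a number. Replicate 1 was the longer list in every clone, null clones included. The causes were not tested. Other alternatives (limma-trend, merging across gaps, minimum width and covered share, other window sizes) kept these counts within 1.5 times. Unknown depth limits every count, and a peak absent from a list is not absence of the mark.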
